A study of Mus musculus with 12 samples.

Results

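Growth factor ligands were examined in CD115+ monocytes of the spleen and the peripheral blood of mice. The set held 10 genes listed by symbol, with earlier results of these data known, as ligands able to act on hepatocytes, vessels or stroma. It comprised the EGF receptor ligands Ereg, Areg, Hbegf and Tgfa, and the ligands Hgf, Vegfa, Igf1, Pdgfb, Tgfb1 and Csf1. These were 10 of the 52553 features of the count tables, and 9 of them were among the 20135 features that passed the filter on low counts. Tgfa did not pass it. RNA-seq was performed on 12 libraries in 4 groups of 3, namely splenic and blood monocytes of intact animals, with neither the liver nor the spleen operated, and the same cells 24 h after resection of 70% of the liver, with the spleen left in place. All donors were C57BL/6 male mice, and each library was made from cells of 5 mice. Splenic cells were released mechanically and with collagenases, freed of red cells by lysis and purified on Ficoll, whereas blood cells were purified on Ficoll alone, and both were then sorted with anti-CD115 magnetic beads. The operated animals had no sham-operated counterparts among these libraries, so the removal of liver tissue and the surgery itself cannot be told apart.

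Epiregulin, amphiregulin, HB-EGF and TGF-alpha are made as membrane-bound precursors, cut loose by surface proteases such as ADAM17, and bind the EGF receptor, through which hepatocytes are driven into the cell cycle after loss of liver mass. HGF, the ligand of MET, is the other classical hepatocyte mitogen. VEGF-A acts on endothelium, PDGF-B on pericytes and stellate cells, TGF-beta 1 restrains hepatocyte growth and drives matrix deposition, IGF-1 is a trophic factor, and CSF-1 maintains monocytes and macrophages through CD115, the receptor used here for the sort.

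Totals ran from 36990033 to 46401368 estimated counts per library. Csf1r, which encodes CD115, was present in every library at 209 to 1192 CPM (counts scaled by the effective library size, the unit of every level given here). Markers of other cells were present too. The 9 erythroid genes summed to 124185 to 529538 CPM in blood and 721 to 32831 CPM in the spleen. Replicate 3 of the resected spleen group carried 902 CPM of an 11-gene peritoneal macrophage list, against 71.2 and 89.0 CPM in the other 2 libraries of its group, and 17398 CPM of a 15-gene neutrophil list, against 6156 and 6681 CPM. Replicate 3 of intact blood carried 2568 CPM of an 8-gene T cell list, against 862 and 926 CPM, and the lowest monocyte marker sum of all 12 libraries, 1374 CPM. Replicate 3 of resected blood carried 24934 CPM of the neutrophil list, against 4697 and 6012 CPM in the other 2 libraries of its group. Values without replicate 3 of the resected spleen or replicate 3 of intact blood are given beside the ligand results that these libraries moved most. In bulk RNA, a change in the share of a cell type and a change in RNA per cell cannot be told apart. The labels do not say how the pools relate to one another, so p-values measure the spread between these libraries.

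After resection, 3 of the 9 tested ligands were higher in blood monocytes, and all 3 were EGF receptor ligands. Hbegf, the heparin-binding member, stood at 28.8 ± 12.2 CPM (SD, n = 3) against 1.33 ± 0.404 CPM in intact animals. Ereg stood at 22.8 ± 9.81 CPM and Areg at 18.9 ± 10.96 CPM, from 0.0244 ± 0.0258 and 0.480 ± 0.375 CPM. None was called lower. A call was an adjusted p under 0.05 in edgeR's quasi-likelihood test, Benjamini-Hochberg adjusted over all tested features, with a log2 fold change beyond 1 in either direction. By this rule 13.9% of all tested features were called in blood, 7.8% higher and 6.11% lower. In the spleen 1 of 9 ligands was called, Hbegf, and it was higher, against 1.38% of features called in either direction and 0.78% called higher, 0.596% lower. At an unadjusted p under 0.05 there were 4 ligands in blood, against 35.9% of all features, and 3 in the spleen, against 20.8%.

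**Figure D1:**
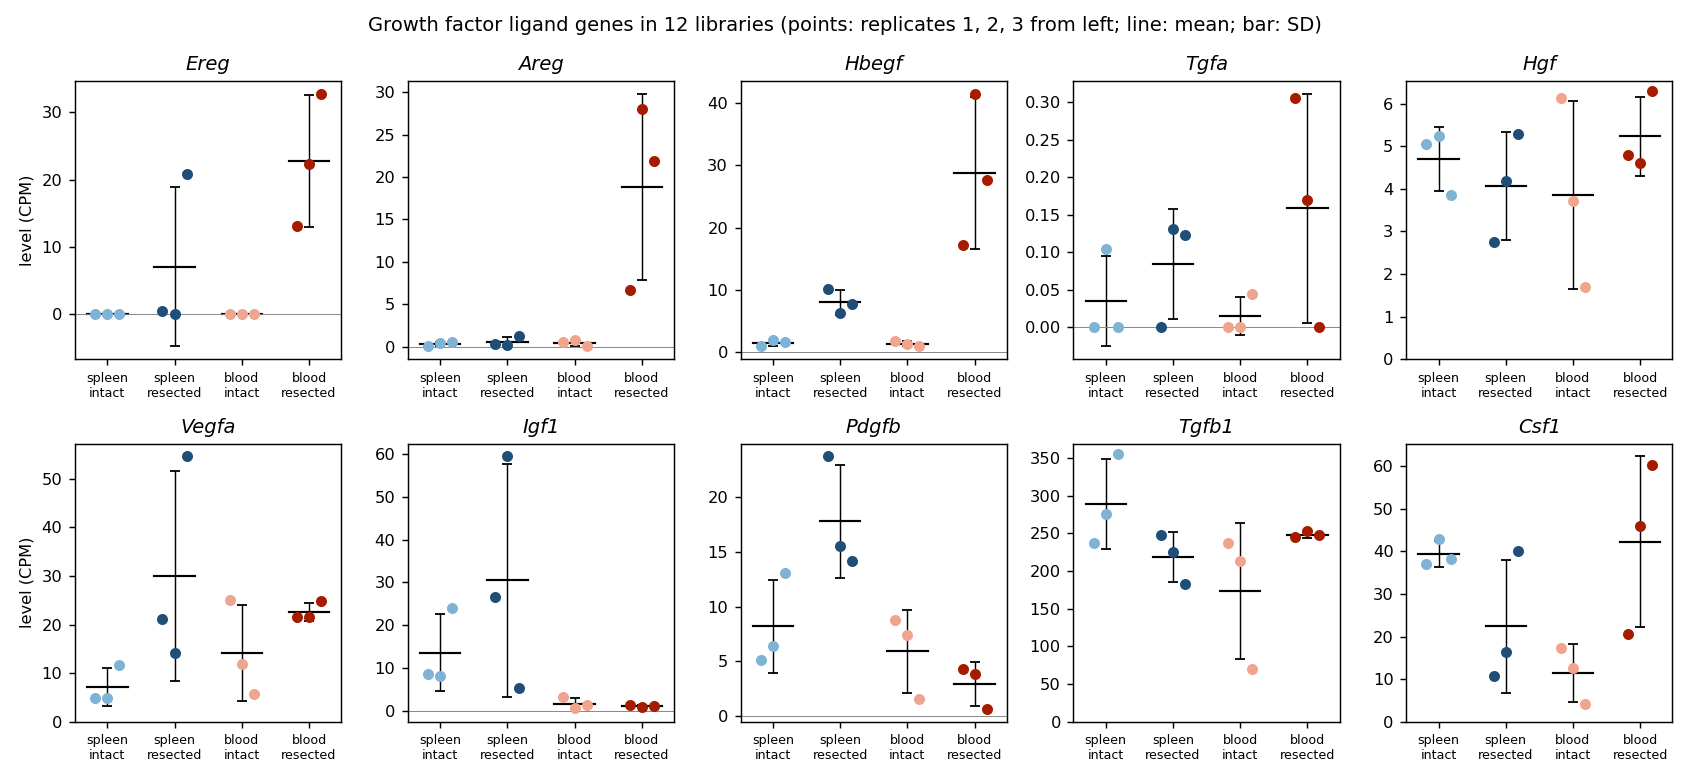
Level of each of the 10 ligand genes in CPM (linear vertical axes, scaled by panel) in the 3 libraries of each group, with points for libraries and a bar for the mean ± SD. Ereg, Areg and Hbegf are highest in blood after resection (13.2 to 32.8, 6.68 to 27.96 and 17.2 to 41.5 CPM), whereas Igf1 is highest in splenic libraries (5.43 to 59.5 CPM).

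Ereg, which encodes epiregulin, a low-affinity ligand of the EGF receptor, was counted at 0, 2 and 1 reads in replicates 1, 2 and 3 of intact blood, and at 432, 656 and 1165 reads in blood after resection. Those counts correspond to 13.2, 22.3 and 32.8 CPM after resection, and the groups did not overlap. Since no library of intact blood exceeded 3 counts, the limit of counting used here, the change is given as a bound, at least 303-fold against the mean level of 3 counts in those libraries, 0.0751 CPM (edgeR adjusted p = 0.0132). In splenic monocytes Ereg was counted at 0, 1 and 0 reads in intact animals and at 21, 2 and 846 reads after resection. The splenic groups were apart by 1 read at their nearest, and almost all of the signal came from replicate 3, at 20.8 CPM against 0.490 and 0.0437 CPM in replicates 1 and 2. The bound on the mean was at least 113-fold with all 3 libraries and at least 4.23-fold without replicate 3. The latter rested on replicate 1, since replicate 2, at 2 reads, was itself within the limit of counting. The comparison with all libraries was not called (adjusted p = 0.0651). It was called without replicate 2 of the resected spleen (adjusted p = 0.0471) and without replicate 3 of intact blood (adjusted p = 0.0466), and by DESeq2 with all libraries (adjusted p = 1.61e-05). Such limits cover counting error only, as the reads carried no molecular identifiers.

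Areg encodes amphiregulin, a ligand made by many leukocytes during tissue repair. In blood it was measured at 0.578, 0.796 and 0.0655 CPM in intact animals and at 6.68, 27.96 and 21.9 CPM after resection. Every library after resection lay above every intact library, and the log2 fold change was 5.29 (SE 1.08, adjusted p = 0.00863), a 39.3-fold ratio of the means. In the spleen it stayed low, at 0.105, 0.397 and 0.511 CPM in intact animals and 0.327, 0.240 and 1.23 CPM after resection. The splenic groups overlapped (log2 fold change 0.82, SE 0.94, adjusted p = 0.677), with a 95% interval from -1.28 to 2.91. Without replicate 3 of the resected spleen the splenic value turned to -0.25 (adjusted p = 0.954), and without replicate 3 of intact blood the blood value was 4.77 (adjusted p = 0.0135).

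The 250 bases before the RefSeq start of Areg (build GRCm38.p6, chr5:91139349-91139598, plus strand) are shown because Areg was called in blood and its window held a cyclic AMP response element. That element was not found in the windows of the 6 other members for which a window was taken. Capitals mark that element, TGACGTCA, at 61 to 54 bases before the start, and a TATA box, TATAAA, at 31 to 26 bases before it.
Areg promoter: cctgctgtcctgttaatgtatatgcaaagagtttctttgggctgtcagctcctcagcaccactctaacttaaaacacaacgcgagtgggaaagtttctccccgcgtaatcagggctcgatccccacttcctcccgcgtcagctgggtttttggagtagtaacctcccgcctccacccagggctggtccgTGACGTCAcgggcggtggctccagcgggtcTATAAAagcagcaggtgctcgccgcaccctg
The element occurred in 1.55% and the TATA box in 12.4% of the 32851 promoter windows of the same length, searched on both strands. None of the motifs searched here contains another. Areg and Ereg are direct neighbours among the protein-coding genes of mouse chromosome 5, in the order Epgn, Ereg, Areg, Btc. The outer 2 genes of this row, which also encode EGF receptor ligands, did not pass the filter, with at most 3 counts of Btc and 6 counts of Epgn in any library.

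Hbegf, whose product is bound by heparin and in man also serves as the diphtheria toxin receptor, was the only ligand called in both tissues. In blood it was measured at 1.76, 1.26 and 0.961 CPM in intact animals and at 17.2, 41.5 and 27.7 CPM after resection. In the spleen it was measured at 0.884, 1.88 and 1.60 CPM in intact animals and at 10.1, 6.18 and 7.69 CPM after resection. In neither tissue did the groups overlap. The log2 fold change was 4.44 in blood (SE 0.45, adjusted p = 0.000612) and 2.46 in the spleen (SE 0.41, adjusted p = 0.0253), ratios of the means of 21.7 and 5.51. The splenic value was not carried by replicate 3, since it was 2.49 without that library, although it was then no longer called (adjusted p = 0.0792). The call was also lost, at log2 fold changes of 2.20 to 2.69, without any 1 of the 3 intact splenic libraries (adjusted p = 0.138, 0.134 and 0.0608 without replicates 1, 2 and 3), without replicate 1 of the resected spleen (adjusted p = 0.0515), or without replicate 2 of either blood group (adjusted p = 0.0503 and 0.0551). With the replicate number as a block it was 2.50 (adjusted p = 0.0506).

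Tgfa, the remaining member of the family in the set, was near the limit of counting in every group. It was counted at 0, 5 and 0 reads in the intact spleen, 0, 6 and 5 in the spleen after resection, 0, 0 and 2 in intact blood, and 10, 5 and 0 in blood after resection. It was not tested, and no difference was detectable at this depth.

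**Figure D2:**
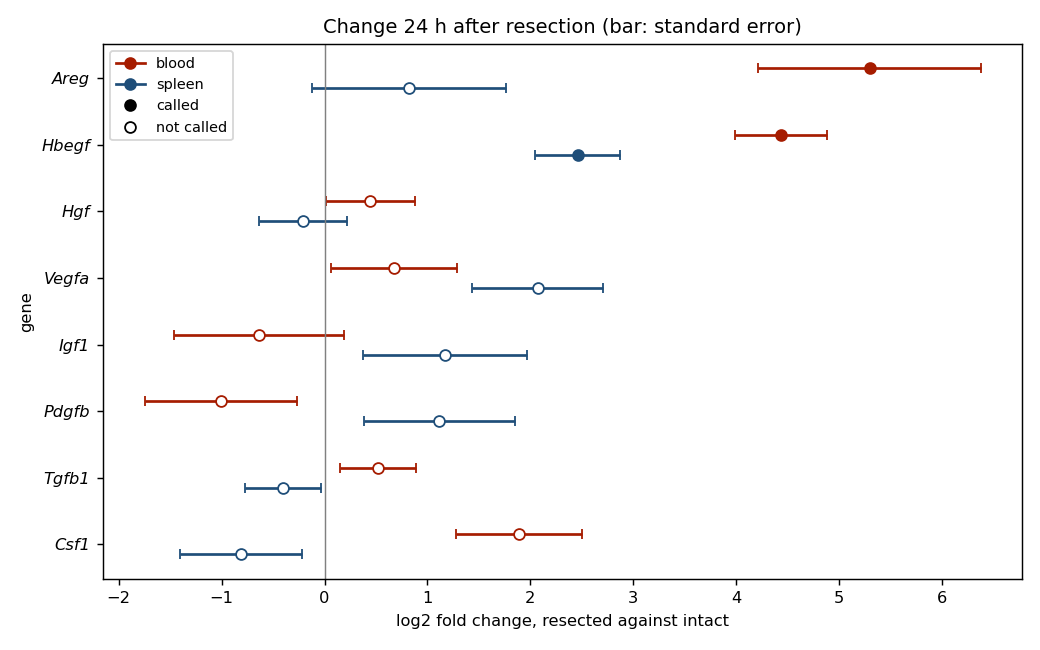
Log2 fold change of each tested ligand 24 h after resection against intact animals (horizontal axis) in blood and spleen, with bars for the standard error and filled points for called genes. Areg (5.29) and Hbegf (4.44) stand apart in blood and Hbegf (2.46) is the filled point of the spleen. Ereg is left out, because its intact libraries were at the limit of counting.

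The 3 EGF receptor ligands moved with markers of other cell types in blood. The peritoneal macrophage list summed to 464 to 1317 CPM in intact blood and 9341 to 14116 CPM after resection, and 10 of its 11 genes were called higher. Among them Gata6, the defining transcription factor of these cells, went from 2.85 to 5.86 CPM in intact blood to 17.7 to 23.7 CPM after resection, against 0 to 0.163 CPM in the splenic libraries. The neutrophil list summed to 170 to 627 CPM and 4697 to 24934 CPM, with 14 of 15 genes called higher. Of the red pulp macrophage list 8 of 9 genes were called higher, with sums of 250 to 822 and 2665 to 3513 CPM. The highest levels of that list in blood after resection were those of Adgre1 (793 to 1140 CPM), Hmox1 (565 to 801 CPM) and Cd5l (431 to 645 CPM). Its genes Spic and Vcam1 stood at only 1.98 to 6.42 and 1.37 to 4.78 CPM there. In the splenic libraries these 2 were at 31.3 to 126 and 377 to 1572 CPM. Of the T cell list 6 of 8 were called lower, with sums of 862 to 2568 and 148 to 308 CPM. The mesothelial cell and fibroblast list summed to 6.14 to 11.7 and 27.5 to 35.5 CPM, and 1 of its 9 tested genes was called higher. The monocyte list itself summed to 1374 to 3088 CPM and 5159 to 9588 CPM, with 4 of 12 genes called higher and 2 lower. The basophil and mast cell list summed to 12.01 to 39.7 CPM in intact blood and 102 to 444 CPM after resection, with 2 of 10 genes called higher. The latter sum was made up almost wholly of Hdc, at 85.5 to 424 CPM after resection, whereas the defining basophil gene Mcpt8 was at 0.0563 to 0.519 CPM. No gene of these lists was at 0 throughout a blood group, and the part of any of these cells in the ligand values was not tested. In the spleen, where Hbegf was called higher, the neutrophil list summed to 1444 to 2580 CPM in intact animals and 6156 to 17398 CPM after resection, with 2 of 15 genes called higher, and the red pulp macrophage list to 1425 to 2127 and 3010.1 to 5985 CPM, with 1 of 9 called higher. The sums of 5 other lists did not overlap in the spleen either, with no gene called. They were higher after resection for the erythroid list (721 to 3386 and 7534 to 32831 CPM) and the monocyte list (1933 to 2256 and 3447 to 4166 CPM). They were lower for the B cell list (4704 to 5262 and 1225 to 3933 CPM), the T cell list (197 to 368 and 91.3 to 145 CPM) and the NK cell list (52.1 to 98.3 and 10.8 to 40.8 CPM). Genes of the monocyte list went both ways in the spleen. Csf1r (374 to 525 and 587 to 1192 CPM) and Treml4 (60.0 to 76.7 and 85.9 to 158 CPM) were higher without overlap. Ccr2 (121 to 227 and 59.7 to 96.8 CPM), Cx3cr1 (11.2 to 31.3 and 3.05 to 4.83 CPM) and Ms4a4c (74.2 to 119 and 21.9 to 31.4 CPM) were lower without overlap. The part of all these lists in the splenic value was not tested. The replicate with 20.8 CPM of Ereg was the one with the high peritoneal macrophage sum, of which Saa3 made up 847 CPM, while its Gata6 stood at 0.147 CPM and its Prg4 at 0.959 CPM, within the range of the other splenic libraries.

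**Figure D3:**
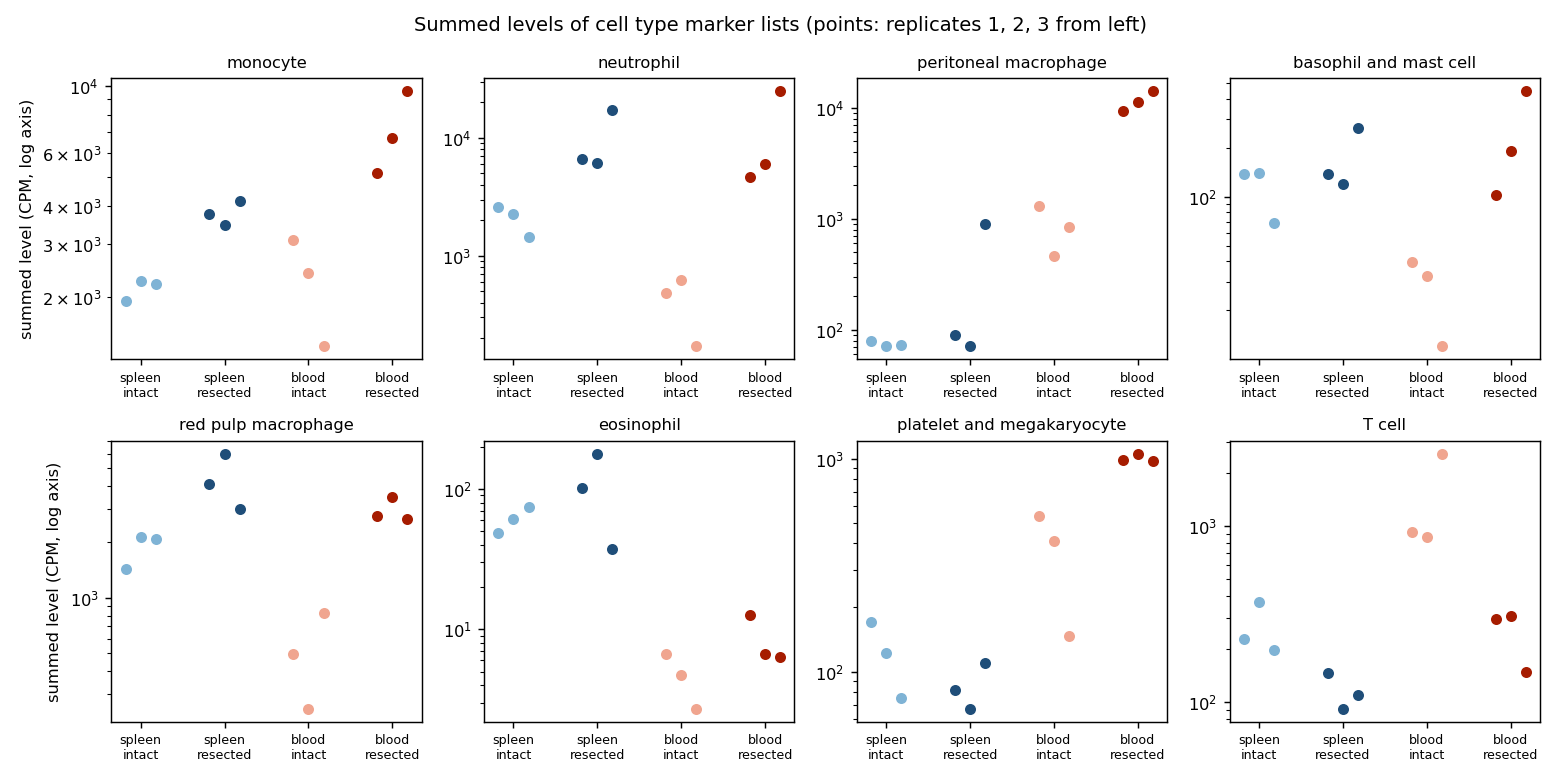
Summed level of 8 of the marker lists in CPM (log axis) in the 12 libraries, with a point for each library of the 4 groups. In blood the peritoneal macrophage and neutrophil sums after resection (9341 to 14116 and 4697 to 24934 CPM) lie above those of intact animals, and replicate 3 of the resected spleen (902 and 17398 CPM) lies above the other splenic libraries.

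Hgf encodes hepatocyte growth factor, which is secreted as an inactive precursor and needs cutting by serine proteases. Its level was low in every group, at 5.05, 5.24 and 3.85 CPM in the intact spleen, 2.76, 4.19 and 5.29 CPM in the spleen after resection, 6.14, 3.73 and 1.70 CPM in intact blood, and 4.79, 4.62 and 6.30 CPM in blood after resection. All 4 groups overlapped. The log2 fold change on resection was 0.44 in blood (SE 0.43, adjusted p = 0.501, 95% interval from -0.52 to 1.40) and -0.21 in the spleen (SE 0.43, adjusted p = 0.835, 95% interval from -1.17 to 0.75). The blood value was 0.08 without replicate 3 of the intact group (adjusted p = 0.908).

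Vegfa was measured at 4.86, 4.86 and 11.7 CPM in intact splenic libraries and at 21.2, 14.2 and 54.7 CPM after resection. The splenic groups did not overlap, but the log2 fold change of 2.07 was not called (SE 0.63, adjusted p = 0.108), and without replicate 3 of the resected spleen it was 1.31 (adjusted p = 0.337). DESeq2 called it with all libraries (2.06, adjusted p = 0.0118). In blood it was measured at 25.0, 11.8 and 5.70 CPM in intact animals and at 21.6, 21.5 and 24.8 CPM after resection. Here the intact libraries were scattered, the highest of them above all 3 libraries after resection, and the log2 fold change was 0.68 (SE 0.61, adjusted p = 0.465), or 0.29 without replicate 3 of the intact group (adjusted p = 0.782).

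Pdgfb encodes the B chain of platelet-derived growth factor. In the spleen it was measured at 5.16, 6.45 and 13.05 CPM in intact animals and at 23.7, 15.5 and 14.2 CPM after resection, without overlap, but was not called (log2 fold change 1.12, SE 0.73, adjusted p = 0.424). In blood the values were 8.75, 7.43 and 1.57 CPM in intact animals and 4.33, 3.84 and 0.647 CPM after resection, so that the groups overlapped (log2 fold change -1.01, SE 0.74, adjusted p = 0.36, or -1.47 and 0.151 without replicate 3 of intact blood). The signs thus differed between the tissues, but neither comparison was called and the difference between them was not called either (adjusted p = 0.324).

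Platelets carry PDGF-B and TGF-beta 1 as well. The 13-gene platelet list summed to 148 to 540 CPM in intact blood, 972 to 1053 CPM in blood after resection, 75.2 to 171 CPM in the intact spleen and 66.7 to 110 CPM in the spleen after resection, the group with the highest Pdgfb. In blood 1 of the 13 genes was called higher after resection. Most of the sum there was then Pf4, at 537 to 643 CPM against 20.2 to 72.7 CPM in intact blood. Ppbp and Gp1bb were also higher without overlap, whereas the other listed genes overlapped. Most of each splenic sum was Itgb3, at 55.9 to 138 CPM in intact animals and 38.1 to 71.9 CPM after resection. No gene of that list was at 0 throughout a group, and its part in the Pdgfb values was not tested.

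Igf1, which encodes a trophic factor also made by tissue macrophages, had higher values in the spleen than in blood. It was measured at 8.52, 8.22 and 24.0 CPM in intact splenic libraries and at 26.6, 59.5 and 5.43 CPM after resection, against 3.14, 0.642 and 1.27 CPM in intact blood and 1.25, 0.951 and 1.04 CPM in blood after resection. The lowest splenic library, replicate 3 after resection, still exceeded every blood library. Resection gave log2 fold changes of 1.17 in the spleen (SE 0.80, adjusted p = 0.441) and -0.63 in blood (SE 0.83, adjusted p = 0.626), with overlap in both tissues. The splenic value was 0.24 without replicate 2 and 1.67 without replicate 3 of the resected group, and the blood value turned to 0.23 without replicate 1 of the intact group. In the 3 resected spleen libraries the 7 endothelial genes summed to 66.0, 92.9 and 19.4 CPM, lowest where Igf1 was lowest. Most of this sum was Stab2, at 60.5, 87.6 and 12.2 CPM. Of the others, Esam and Emcn were also lowest in replicate 3, whereas Cdh5, Tie1, Tek and Erg were highest there. The red pulp macrophage list summed to 4092, 5985 and 3010.1 CPM in these libraries. Of its genes Hmox1 was highest in replicate 3 (753, 1096 and 1389 CPM), whereas all the others were lowest there, among them Vcam1 (916, 1572 and 377 CPM) and Cd5l (389, 397 and 35.0 CPM). The part of either list in the Igf1 values was not tested.

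The promoter window of Igf1 (GRCm38.p6, chr10:87860861-87861110, plus strand) is shown because Igf1 had the largest difference towards the spleen among the members. Capitals mark a match to the NF-kB motif, read as GGGAA, any 3 bases and CC, on the opposite strand, at 96 to 87 bases before the start. They also mark a match to the AP-1 motif as searched here, TGANTCA with any base at N, at 37 to 31 bases before it. The letters matched were TGAATCA.
Igf1 promoter: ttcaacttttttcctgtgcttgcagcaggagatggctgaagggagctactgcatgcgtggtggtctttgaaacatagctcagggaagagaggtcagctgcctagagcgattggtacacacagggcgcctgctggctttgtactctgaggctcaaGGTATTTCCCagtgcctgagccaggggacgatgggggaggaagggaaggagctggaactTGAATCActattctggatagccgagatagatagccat
The NF-kB motif occurred in 4.94% and the AP-1 motif in 6.75% of all windows.

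Tgfb1 was even in blood after resection and more scattered elsewhere. It was measured at 237, 276 and 355 CPM in the intact spleen, 248, 225 and 183 CPM in the spleen after resection, 238, 213 and 69.8 CPM in intact blood and 245, 253 and 247 CPM in blood after resection. The splenic groups overlapped, and the blood libraries after resection lay just above the highest intact one. Neither change was called, at log2 fold changes of 0.52 in blood (SE 0.37, adjusted p = 0.348) and -0.40 in the spleen (SE 0.37, adjusted p = 0.581). In blood the value was 0.13 without replicate 3 of the intact group, the library with the high T cell and low monocyte sums.

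Csf1 encodes the ligand of the receptor by which the cells were sorted. In blood it was measured at 17.4, 12.7 and 4.11 CPM in intact animals and at 20.6, 45.9 and 60.3 CPM after resection. The groups did not overlap, yet the log2 fold change of 1.89 just missed the threshold (SE 0.61, adjusted p = 0.0525). It was called by DESeq2 (1.90, adjusted p = 0.0096), with a filter of at least 10 counts in every library of a group (1.90, adjusted p = 0.0445), without replicate 3 of the resected spleen (1.89, adjusted p = 0.0353) and without replicate 1 of the resected blood group (2.21, adjusted p = 0.0463). It was not called under the other alternatives, and fell to 1.48 without replicate 3 of intact blood (adjusted p = 0.104) and to 1.55 without replicate 3 of the resected blood group (adjusted p = 0.17, the highest). In the spleen it was measured at 36.95, 42.8 and 38.2 CPM in intact animals and at 10.7, 16.4 and 40.2 CPM after resection. Replicates 1 and 2 after resection lay well below the intact libraries and replicate 3 among them, and the log2 fold change was -0.81 (SE 0.59, adjusted p = 0.476), or -1.53 without replicate 3 (adjusted p = 0.286).

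The promoter window of Csf1 (GRCm38.p6, chr3:107760470-107760719, minus strand) is shown because Csf1 lay nearest to the threshold in blood. Capitals mark its match to the same NF-kB motif, at 155 to 146 bases before the start.
Csf1 promoter: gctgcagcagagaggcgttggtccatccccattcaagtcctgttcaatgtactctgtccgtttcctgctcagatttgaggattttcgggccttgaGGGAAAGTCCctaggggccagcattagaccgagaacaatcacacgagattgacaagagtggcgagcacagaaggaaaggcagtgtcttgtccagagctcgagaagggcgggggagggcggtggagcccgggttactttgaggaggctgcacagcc
Promoter windows were matched by symbol for 7 of the 10 members. None is given for Ereg and Pdgfb, nor for Hbegf, whose chromosome was left out of this step. Of the 6 motifs searched, the others being C/EBP, TTGCNNAA, in 9.56% of all windows, and the hypoxia response core, ACGTG, in 16.6%, none was found in the windows of Tgfa, Hgf and Tgfb1, and the hypoxia core was found in 1 of the 2 windows of Vegfa. These matches describe letters in the window and no binding was measured.

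Counted over the whole set, libraries of the groups did not overlap for 5 of the 9 tested ligands in blood (Ereg, Areg, Hbegf, Tgfb1 and Csf1), against 38.4% of all features. In the spleen this was so for 4 (Ereg, Hbegf, Vegfa and Pdgfb), against 35.1%. The median log2 fold change of the 9 was 0.68 in blood and 1.12 in the spleen, and that of all features was -0.10 and 0.05.

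Blood and splenic monocytes were then compared within each state of the liver. In intact animals none of the 9 ligands was called by edgeR, against 7.35% of all features, 3.86% higher and 3.49% lower. At an unadjusted p under 0.05 there were 2, against 25.3% of all features, namely Igf1 and Csf1, both lower in blood, and both were called by DESeq2. The intact blood and splenic libraries of these 2 genes did not overlap, and no other member was without overlap, against 34.5% of all features. The log2 difference, blood minus spleen, was -3.01 for Igf1 (SE 0.86, adjusted p = 0.0554) and -1.79 for Csf1 (SE 0.61, adjusted p = 0.0979). Igf1 passed the threshold with the filter of at least 10 counts (adjusted p = 0.0456) and without replicate 3 of the resected spleen (-2.91, adjusted p = 0.0297). Without replicate 3 of intact blood the value for Csf1 was -1.28 (adjusted p = 0.21). For Hbegf the difference was -0.13 with a 95% interval from -1.01 to 0.75, and Ereg was at the limit of counting in both.

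After resection 4 of 9 were called, Areg and Hbegf higher and Igf1 and Pdgfb lower in blood, against 13.2% of all features called, 6.28% higher and 6.87% lower. These were also the 4 members without overlap, against 42.4% of all features. The log2 difference was 4.97 for Areg (SE 1.06, adjusted p = 0.0114) and 1.85 for Hbegf (SE 0.40, adjusted p = 0.0116), 31.5-fold and 3.60-fold by the means. Without replicate 3 of the resected spleen the Areg difference was 6.14 (adjusted p = 0.0111). For Igf1 it was -4.81 (SE 0.93, adjusted p = 0.0076), a mean 28.2-fold lower in blood, with -3.78 (adjusted p = 0.0278) and -5.21 (adjusted p = 0.003) without replicates 2 and 3 of the resected spleen. For Pdgfb it was -2.60 (SE 0.77, adjusted p = 0.0419), a mean 6.06-fold lower, but this call was lost without any 1 of 11 of the 12 libraries, all but replicate 3 of intact blood, at values from -2.88 to -2.02 and adjusted p from 0.059 to 0.131. It was also lost with no filter on low counts (-2.52, adjusted p = 0.0705), with RLE factors (-2.49, adjusted p = 0.0502) and with the symbol entry alone (-2.49, adjusted p = 0.0576). Ereg was not called (1.68, SE 1.43, adjusted p = 0.447), as replicate 3 of the resected spleen reached the blood range. Without that library the difference was 6.51 (adjusted p = 0.0071). For Csf1 the difference was 0.91 (SE 0.60, adjusted p = 0.312), and 1.74 without it (adjusted p = 0.0812). The same library set the sign for Vegfa, at -0.41 with it (SE 0.61, adjusted p = 0.689) and 0.46 without it. Scaling moved the median of all features by over 0.1 in these comparisons. It was -0.14 after resection, and -0.02 with the haemoglobin genes left out, and it was -0.02 and 0.10 in intact animals.

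**Figure D4:**
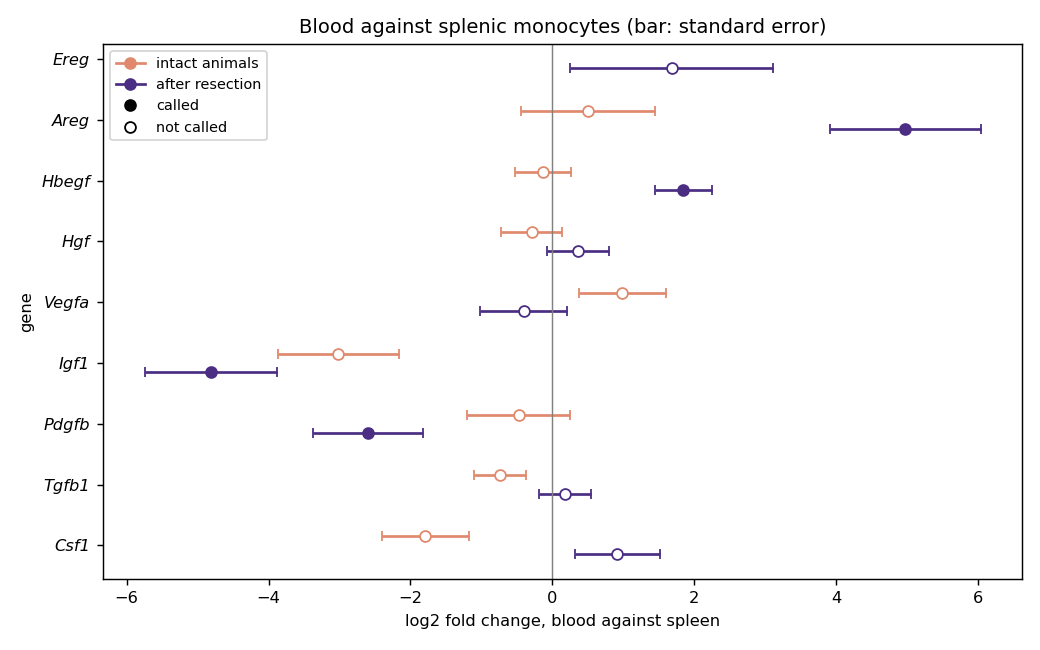
Log2 difference of each tested ligand between blood and splenic monocytes (horizontal axis, positive when higher in blood) in intact animals and after resection, with bars for the standard error and filled points for called genes. After resection Areg (4.97) and Hbegf (1.85) lie on the blood side and Igf1 (-4.81) and Pdgfb (-2.60) on the splenic side. Ereg is shown after resection only.

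Whether resection acted differently in the 2 tissues was tested directly, as the difference of the resection effects. The tests above share libraries, so their values are not independent of each other. None of the 9 ligands was called by edgeR, against 0.283% of all features, 0.219% more positive in blood and 0.0646% more negative. At an unadjusted p under 0.05 there were 3, against 17.3% of all features, namely Areg with a difference of 4.48 (SE 1.36, adjusted p = 0.175), Csf1 with 2.70 (SE 0.85, adjusted p = 0.182) and Hbegf with 1.98 (SE 0.56, adjusted p = 0.157), and DESeq2 called these 3. All 3 were more positive in blood. Without replicate 3 of the resected spleen the differences of Areg and Csf1 were 5.55 and 3.43, and without replicate 3 of intact blood they were 3.96 and 2.30, again not called.

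Ordered by their means, neighbouring groups overlapped for most members. For Areg only resected blood stood clear of the next group. For Hbegf resected blood stood clear of the resected spleen, which in turn stood clear of the intact spleen, and the intact groups overlapped. For Igf1 the intact spleen stood clear of intact blood, and for Pdgfb the resected spleen of the intact spleen. No neighbours were separated for Ereg, Tgfa, Hgf, Vegfa, Tgfb1 or Csf1.

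Around the ligands, 68 genes of 9 pathway lists were followed, of which 57 were tested. In blood 16 were called higher after resection and 2 lower, with a median log2 fold change of 0.39, against 7.8% and 6.11% of all features and a median of -0.10. In the spleen 1 was called, the serine protease gene Hpn, which was higher (2.66, SE 0.51, adjusted p = 0.0378). Among the genes of EGF ligand release, 2 of 6 were called higher in blood, the sheddase Adam17 (1.26, SE 0.26, adjusted p = 0.00898) and its partner Rhbdf2, which carries the sheddase to the surface (1.79, SE 0.39, adjusted p = 0.0119). Adam17 was at 83.7, 79.3 and 57.3 CPM in intact blood and at 120, 168 and 238 CPM after resection, without overlap. Of the other EGF family ligands Nrg1 (1.83, SE 0.57, adjusted p = 0.0463) and Nrg4 (1.40, SE 0.43, adjusted p = 0.0426), which signal through other ERBB receptors, were called higher, and Egf itself was not.

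Receptors of the ligands were mostly not called on resection. Of the ERBB receptors none of the 3 tested was called in either tissue. Egfr was at 0.415 to 1.43 CPM in intact blood and 2.44 to 3.36 CPM in resected blood (1.77, SE 0.58, adjusted p = 0.0532), and at 0.0218 to 0.234 CPM in the spleen. It was called higher in blood than in the spleen both in intact animals (2.35, SE 0.60, adjusted p = 0.0383) and after resection (5.51, SE 0.70, adjusted p = 0.00123). Erbb2 had the opposite distribution, with log2 differences of -4.87 (adjusted p = 0.00441) and -5.12 (adjusted p = 0.00209). It was at 1.60 to 7.64 CPM in the spleen and 0.0915 to 0.165 CPM in blood. With at most 7 counts in any blood library, near the limit of counting, the size of these differences is imprecise. Met, the HGF receptor, was not called in blood (1.81, SE 0.86, adjusted p = 0.161), and neither was Csf1r in blood (0.94, SE 0.32, adjusted p = 0.0594) or the spleen (0.99, SE 0.32, adjusted p = 0.119). Flt1, a receptor of VEGF-A, was called lower in blood (-1.91, SE 0.53, adjusted p = 0.0301). In the spleen the value was -2.31 (SE 0.54, adjusted p = 0.0569), and the splenic groups did not overlap, at 3.94 to 7.11 CPM in intact animals and 0.747 to 1.44 CPM after resection.

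Genes that activate HGF and TGF-beta were among those called in blood. In the HGF list of 8 genes 4 were higher, the proteases St14 (2.35, SE 0.33, adjusted p = 0.002), Hpn (2.19, SE 0.51, adjusted p = 0.0146) and Plau (3.40, SE 0.66, adjusted p = 0.00714) and the urokinase receptor gene Plaur (1.85, SE 0.41, adjusted p = 0.0126). The protease inhibitor gene Spint2 was lower (-2.03, SE 0.54, adjusted p = 0.0259). It was measured at 18.8, 21.8 and 94.3 CPM in intact blood and at 11.9, 13.8 and 7.37 CPM after resection. The groups did not overlap, but the size of the change leaned on replicate 3 of intact blood, and no value without that library was taken. Plau was measured at 5.70, 13.8 and 3.39 CPM in intact blood and at 79.3, 99.7 and 62.2 CPM after resection, far outside the intact range. St14 was the 1 listed gene called for the difference between tissues (3.23, SE 0.46, adjusted p = 0.0334), since in the spleen it stood at 33.9 to 47.2 CPM in intact animals and at 18.3 to 25.6 CPM after resection.

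In the TGF-beta list 4 of 14 genes were higher in blood after resection. These were the convertase gene Furin (1.61, SE 0.44, adjusted p = 0.0277), the latent TGF-beta binding protein gene Ltbp1 (2.46, SE 0.49, adjusted p = 0.00757), the activator gene Thbs1 (3.90, SE 1.23, adjusted p = 0.0479) and Tgfb2 (1.48, SE 0.46, adjusted p = 0.0441). Ltbp1 and Tgfb2 also separated the tissues, at 22.8 to 68.5 and 7.45 to 21.5 CPM in intact blood against 1.13 to 2.00 and 0.442 to 1.15 CPM in the intact spleen. The type 1 and type 2 TGF-beta receptor genes were not called in either tissue. In the IGF list Igfbp6, which encodes an IGF binding protein, was higher in blood (4.92, SE 0.85, adjusted p = 0.00415), and in the VEGF list Flt4 was higher at levels under 1 CPM (2.33, SE 0.55, adjusted p = 0.0153). In the CSF list the 2 other colony-stimulating factor genes were called higher in blood, Csf3 at 1.53, 8.80 and 32.0 CPM after resection against at most 0.0874 CPM, and Csf2 at 0.214, 2.34 and 0.422 CPM against at most 0.0874 CPM. No gene of the PDGF list was called on resection in either tissue, whereas 3 of its 4 tested genes were lower in blood than in the spleen after resection, against 6.87% of all features, namely Pdgfc (-5.25, SE 1.10, adjusted p = 0.0104), Pdgfra (-1.99, SE 0.61, adjusted p = 0.0465) and Pdgfrb (-1.46, SE 0.40, adjusted p = 0.031).

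**Figure D5:**
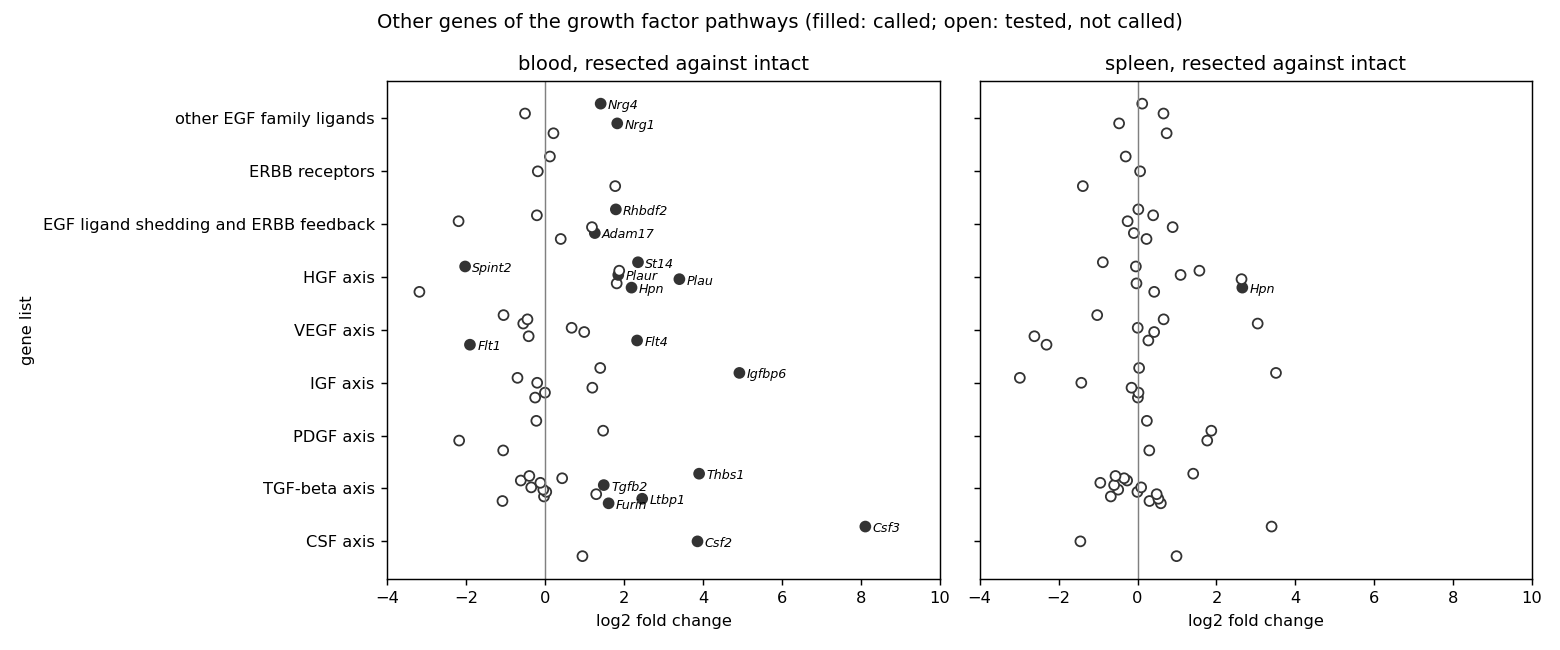
Log2 fold change after resection of the tested genes of the pathway lists in blood and spleen, with a point for each gene, filled when called, grouped by list. In blood 16 genes are filled on the higher side and 2, Spint2 (-2.03) and Flt1 (-1.91), on the lower side, whereas in the spleen Hpn (2.66) is the only filled point.

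The genes most alike each ligand were found by Pearson correlation of log2 CPM over the 12 libraries, among 12740 genes of at least 1 CPM on average. Such values are dominated by differences between the 4 groups and are given as a description. For Ereg they were Peds1 (r = 0.980), Arf1 (r = 0.974) and Gpr84 (r = 0.972), of which Gpr84, a receptor for medium-chain fatty acids induced in activated myeloid cells, had means of 0.455 CPM in intact blood, 66.8 CPM in resected blood, 0.589 CPM in the intact and 11.4 CPM in the resected spleen. For Areg they were Pisd (r = 0.982), Degs1 (r = 0.977) and Arpc1b (r = 0.975), and for Hbegf Ninj1 (r = 0.978), Rbm7 (r = 0.976) and Wsb1 (r = 0.973). Igf1 went with Prkar1b (r = 0.981), the neuregulin gene Nrg2 (r = 0.969) and Cmbl (r = 0.964), all of them with higher means in the splenic groups. Pdgfb went with Ppcdc (r = 0.950), Chchd7 (r = 0.946) and the lymph node homing receptor gene Ccr7 (r = 0.935), whose mean was 882 CPM in the resected spleen and 171 CPM in resected blood. Csf1 went with Srd5a3 (r = 0.953), Il1bos (r = 0.941) and Tlr7 (r = 0.930), Tgfb1 with Gm32342 (r = 0.963), Plcg2 (r = 0.953) and Snx9 (r = 0.952), Vegfa with Tbx2 (r = 0.924), Irf2bp2 (r = 0.918) and Gm51554 (r = 0.913), and Hgf with Ms4a6c (r = 0.929), Tnfaip8l2 (r = 0.911) and Kdm7a (r = 0.897).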

How the data were processed

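CD115+ monocytes were profiled by RNA-seq in 12 libraries, for which the labels name a DNBSEQ strand-specific mRNA library and the study's methods an Illumina HiSeq. For each library the authors deposited estimated counts, neither scaled to depth nor to gene length. STAR and mouse build GRCm39 are named in the submitters' processing notes, and the counting tool and annotation are not given in the sources used here. The 67088 entries comprised 24256 symbols, 40274 RefSeq accessions and 2558 unassigned transcripts. The last were excluded (1.75% to 4.33% of the counts). Through the RefSeq gene table of GRCm38.p6, used for names and gene order only, 25340 accessions were matched to a symbol. Counts were summed per gene, which added 1 accession entry to Vegfa, and rounded.

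Features kept by filterByExpr were fitted with TMM scaling in edgeR 4.0.16 (R 4.3.3) by a robust quasi-likelihood model over all 12 libraries and 4 groups without covariates. The standard error is the absolute log2 fold change divided by the square root of F, intervals are 95% intervals, and correlations used a prior count of 2. A group with at most 3 counts in every library counted as being at the limit of counting. Alternatives were DESeq2 1.42.0, RLE factors, other filters, the symbol entry alone, no haemoglobin genes, only the groups compared, no fold limit, the replicate number as a block, and each library left out. Groups and replicate numbers came from the labels. No library repeated another, as chi-square values between replicates were 19.7 to 560 times their degrees of freedom.

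The 10 members, the pathway and marker lists (Lrrc33 was matched as Nrros, and Ahsp was not matched) and the tests were chosen with earlier results of these data known. All members are named, with called genes and receptors of the pathway lists and the 3 genes most alike each member. Promoters were taken from a RefSeq table of GRCm38.p6, not the build of the count tables, for the 250 bases before each start.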

Additional observations from a re-analysis of the deposited data

How the results depend on the processing

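The calls of Ereg, Areg and Hbegf in resected blood, and of Areg, Hbegf and Igf1 between blood and spleen after resection, were kept under every alternative run. The number of ligands called in the spleen, 1, was 3 with DESeq2 (Ereg, Hbegf and Vegfa) and 0 to 2 when single libraries were left out. Between blood and spleen in intact animals the number, 0, was 2 with DESeq2, 1 with at least 10 counts in every library of a group and 0 to 1 without single libraries, and for the difference of the resection effects, 0, it was 3 with DESeq2.

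The sign turned in some fits without a single library, over which the log2 values ran from -1.02 to 0.23 for Igf1 in blood, -0.25 to 1.23 for Areg and -0.44 to 0.0068 for Hgf in the spleen, -0.34 to 0.20 for Hbegf, -0.74 to 0.17 for Hgf and -0.79 to 0.12 for Pdgfb between the tissues in intact animals, -0.64 to 0.46 for Vegfa between the tissues after resection, and -1.43 to 4.96 for Ereg in the difference of the resection effects. None of these was called with all libraries, and the cause was not tested. Among the values of single ligands under the alternatives, 880 kept direction and side of the threshold, 16 newly passed it, 23 no longer passed and 15 turned sign.

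The labels give the groups the same replicate numbers, but do not say whether these pair the samples. Deviations from the group mean correlated at -0.046 to 0.189 between libraries with the same number. The highest values, 0.131 and 0.189, were those of replicates 2 and 3 in blood against spleen after resection. With 3 libraries a group such values cannot decide whether pools came from the same animals. With the replicate number as a block, 0 ligands were called in the spleen, and Pdgfb between the tissues after resection was at -2.77 (adjusted p = 0.0525). With 3 libraries a group and 0 to 2 counts of Ereg in intact libraries, its size in intact cells could not be measured.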
